A study of Rattus norvegicus with 39 samples.

Results

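Col11a2 and Rasal1 are 2 of the 23978 genes in the count table (Ensembl identifiers ENSRNOG00000000463 and ENSRNOG00000001374). They were selected because their levels differed between ketamine and saline in proestrus D1 libraries in earlier work on these same data. That comparison, and each other comparison that uses a proestrus D1 library, is therefore given as values without a test. The remaining comparisons, which use no proestrus D1 library, were tested. The D2 values, with their outlying libraries, were also known when the genes were chosen, so the tests that use D2 libraries are not independent of that choice.

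Both genes were read in polyribosome-bound mRNA of the nucleus accumbens (NAc), a striatal region of the reward circuit. Heterozygous female Long Evans rats, Drd1a-iCre (D1-Cre) or Drd2-iCre (D2-Cre), carried an intra-NAc adeno-associated virus that puts an HA tag on the ribosomal protein Rpl22 only where Cre is present. HA immunoprecipitation (IP) then recovered mRNA on the ribosomes of cells expressing the D1 or the D2 dopamine receptor, mainly medium spiny neurons (MSNs). All 8 groups carried Cre and the virus, and all rats first had a test session after a saline injection. Treatment followed as 6 intraperitoneal injections 4 to 5 days apart, each given in the same cycle stage, proestrus or diestrus. Ketamine groups received 10 mg/kg racemic ketamine and saline groups received saline. Tissue was taken 4 days after the last session, 30 min after return to the test chamber, so that no drug had been given that day. The ketamine rats were those whose activity had risen over the sessions, a choice that saline rats did not undergo. There was 1 library per rat, with 5 libraries in each group except proestrus D2 with ketamine, which had 4. Because Cre and virus mark cells by promoter activity and infusion site, a tagged cell is not identified further.

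Col11a2 encodes the alpha 2 chain of type XI collagen, a fibrillar collagen that sits within thin collagen fibrils and limits their width, and it is best known from cartilage and the inner ear. Rasal1 encodes a GTPase-activating protein of the RASAL family, which speeds the return of Ras to its inactive state and which binds membranes when calcium rises. Ras and the MAP kinase cascade below it carry signals from glutamate and dopamine receptors in MSNs, which are divided into D1 cells, mainly of the direct pathway, and D2 cells, mainly of the indirect pathway.

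Total counts ran from 2396517 in library 39 (diestrus D2 saline) to 43224256, and the other 38 libraries held at least 16118050. Library 39 carried 30 counts of Col11a2 and 165 of Rasal1, and the other 38 carried at least 133 and 1051. Adora2a, the adenosine receptor gene typical of D2-MSNs, was at 141 to 222 CPM (counts scaled to library size) in D1 libraries and 455 to 1060 CPM in D2 libraries, so every library fell on the side of its label. The lowest D2 value was that of library 32 (diestrus ketamine). Library 33 (proestrus D1 saline) stood apart from its group when counts were compared between libraries over all genes above a low count. Its chi-square per gene was 156 to 201 against its 4 group mates, where the 72 other pairs within groups gave 2.76 to 59.1.

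The promoter of Col11a2 is shown because the groups differ in cycle stage and the gene's level differed between groups. The 250 bases before its annotated start in RefSeq lie at chr20:4817649-4817898 (GRCr8, minus strand), and capitals mark the GC box GGGCGG.

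Col11a2: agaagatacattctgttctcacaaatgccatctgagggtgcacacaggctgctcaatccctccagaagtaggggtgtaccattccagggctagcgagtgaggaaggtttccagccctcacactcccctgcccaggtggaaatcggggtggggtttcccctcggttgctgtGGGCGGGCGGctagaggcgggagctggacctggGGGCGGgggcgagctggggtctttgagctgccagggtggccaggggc

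The GC box was found 3 times, starting 80, 76 and 47 bases before the start, and the first pair of matches overlap. It was present on either strand in 30.5% of the 33469 rat promoters of this length. The window was 62.8% G or C, where the median promoter had 51.2%. The estrogen response element GGTCANNNTGACC (0.0239% of promoters), the cyclic AMP response element TGACGTCA (1.59%), the AP-1 site TGANTCA (6.34%) and the TATA box TATAAA (12.9%) were not in these letters on either strand. No promoter of this length was found under the name Rasal1, so the promoter of Rasal1 was not searched. In the RefSeq order of genes, Col11a2 lies beside Rxrb, a nuclear receptor gene, whose group means ran only from 79.5 to 84.6 CPM.

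Levels are CPM scaled by TMM, the trimmed mean of M-values, and they are compared within a gene and not between the 2 genes. In D1 libraries Col11a2 was lowest with saline in proestrus. The 5 saline libraries of proestrus D1 held 11.35, 11.29, 9.89, 7.02 and 7.92 CPM (mean 9.49 ± 1.96 SD). The 5 ketamine libraries of proestrus D1 held 19.03, 17.55, 17.78, 18.86 and 12.99 CPM (17.2 ± 2.46). All 5 ketamine libraries lay above all 5 saline libraries, with a gap of 1.65 CPM between library 34 and the highest saline library. The fitted difference was 0.88 on the log2 scale (SE 0.11), a 1.84-fold higher level. A gene was called where its p, adjusted over all genes, was under 0.1. In this comparison 1 of 13183 genes was called (0.00759%) and in 0.705% the groups did not overlap, and nothing is read from either share, since the comparison chose the genes. The difference was 0.86 without library 33 and 0.89 without library 34.

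Rasal1 moved the same way in proestrus D1, with a smaller step and overlapping groups. The 5 saline libraries of proestrus D1 held 83.2, 77.3, 58.7, 70.8 and 66.3 CPM of Rasal1 (71.3 ± 9.5). The 5 ketamine libraries of proestrus D1 held 93.2, 94.1, 80.6, 75.5 and 104.5 CPM (89.6 ± 11.6). Of the ketamine libraries, 3 lay above all saline libraries and the other 2 lay within the saline range. The fitted difference was 0.31 (SE 0.07), a 1.24-fold higher level, and leaving out 1 library at a time gave 0.23 to 0.34.

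**Figure D1:**
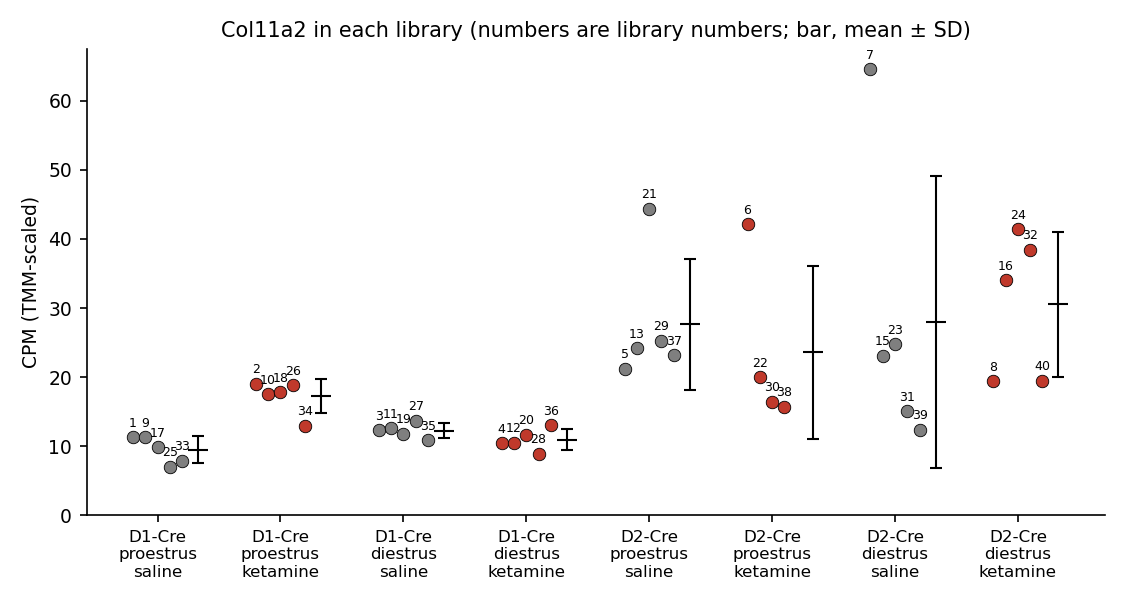
Col11a2 in each of the 39 libraries, as TMM-scaled CPM on the vertical axis, for the 8 groups on the horizontal axis. Grey points are saline and red points ketamine libraries, labelled by library number, and the bars give mean ± SD. The proestrus D1 ketamine points stand above the saline points beside them, and libraries 21, 6 and 7 stand far above the rest of their D2 groups.

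Diestrus D1 libraries were not used in the selection, and there neither gene passed the test. Col11a2 was at 12.32, 12.62, 11.81, 13.69 and 10.90 CPM with saline (12.3 ± 1.03) and at 10.40, 10.54, 11.66, 8.94 and 13.05 CPM with ketamine (10.9 ± 1.53). The groups overlapped, and 3 of 5 ketamine libraries lay below all saline libraries. The fitted difference of Col11a2 was -0.18 (SE 0.10, 95% interval -0.38 to 0.03, edgeR's quasi-likelihood test, adjusted p = 1), an interval that reaches from a 0.766-fold to a 1.02-fold level. Rasal1 was at 98.8, 82.7, 82.5, 81.3 and 84.3 CPM with saline (85.9 ± 7.29) and at 77.0, 81.6, 89.4, 65.2 and 99.4 CPM with ketamine (82.5 ± 12.9). Its fitted difference was -0.057 (SE 0.043, interval -0.15 to 0.034, edgeR adjusted p = 1). Of the 13214 genes tested in diestrus D1, 0.0227% were called, which is 3 genes, with 0 to 10 under other settings and 0 to 5 with 1 library left out.

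Proestrus and diestrus can also be set side by side within D1, as values only. With saline, Col11a2 differed by -0.36 (SE 0.14) and Rasal1 by -0.20 (SE 0.06) between proestrus and diestrus. The value for Col11a2 was -0.18 without library 25 and ran to -0.51 without library 1. With ketamine, Col11a2 differed by 0.66 (SE 0.12) and Rasal1 by 0.10 (SE 0.06). The proestrus saline libraries were thus the low ones in D1 for both genes: 3 of 5 lay below all diestrus saline libraries for Col11a2 and 4 of 5 for Rasal1. With ketamine, 4 of 5 proestrus libraries lay above all diestrus libraries for Col11a2 and 1 of 5 for Rasal1. These comparisons share libraries with the one that chose the genes.

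In D2 libraries Col11a2 was higher and far more variable. With saline in proestrus it was at 21.25, 24.15, 44.37, 25.30 and 23.16 CPM (27.7 ± 9.47), and library 21 held the high value. With ketamine in proestrus it was at 42.11, 20.03, 16.46 and 15.71 CPM (23.6 ± 12.5), and library 6 held the high value. With saline in diestrus it was at 64.56, 23.11, 24.79, 15.04 and 12.42 CPM (28.0 ± 21.1), from library 7 at the top to the shallow library 39 at the bottom. With ketamine in diestrus it was at 19.38, 34.06, 41.39, 38.41 and 19.48 CPM (30.5 ± 10.5), with libraries 16, 24 and 32 high and libraries 8 and 40 low. The coefficient of variation was 34.2% to 75.4% in the D2 groups and 8.38% to 20.6% in the D1 groups.

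Neither treatment nor stage gave a call for Col11a2 in D2. Ketamine minus saline was -0.015 in proestrus (SE 0.35, interval -0.87 to 0.84, edgeR adjusted p = 1) and -0.12 in diestrus (SE 0.51, interval -1.35 to 1.1, edgeR adjusted p = 1). The sign in diestrus runs against the group means (ratio 1.09) and turned to 0.060 without surrogate variables, the covariates for unwanted variation that the edgeR fits estimate from the counts. As folds, the proestrus interval spans 0.546 to 1.79 and the diestrus interval 0.393 to 2.14. Without library 7 the diestrus difference was 0.38 (SE 0.33), and without library 6 the proestrus difference was -0.42 (SE 0.13), and neither was called (edgeR adjusted p = 0.968 and 1). Proestrus minus diestrus was 0.078 with saline (SE 0.16, interval -0.27 to 0.43) and -0.078 with ketamine (SE 0.14, interval -0.39 to 0.24), with edgeR adjusted p of 0.995 and 0.998. The sign with saline likewise runs against the group means (ratio 0.988) and turned without surrogate variables (-0.10). Over all genes, 0% were called in each of these 4 comparisons. At an unadjusted p under 0.05 edgeR counted 457 and 355 genes for ketamine and 546 and 469 for cycle stage, and DESeq2 with 2 surrogate variables called 1 and 0 genes for ketamine and 0 and 4 for cycle stage.

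Rasal1 varied less than Col11a2 in D2, with a coefficient of variation of 6.32% to 20.5%. It was at 51.1, 59.1, 87.7, 67.0 and 66.8 CPM with saline in proestrus (66.3 ± 13.6) and at 61.6, 68.3, 66.9 and 59.9 CPM with ketamine (64.2 ± 4.05). In diestrus it was at 77.6, 60.1, 60.8, 61.9 and 68.3 CPM with saline (65.7 ± 7.39) and at 62.9, 68.9, 68.5, 54.4 and 64.4 CPM with ketamine (63.8 ± 5.85). Libraries 21 and 7, the highest for Col11a2 in their groups, were also the highest for Rasal1, while library 6 was not. Ketamine minus saline was 0.13 in proestrus (SE 0.09, interval -0.080 to 0.34) and 0.034 in diestrus (SE 0.08, interval -0.15 to 0.22), with edgeR adjusted p of 0.999 and 1. Both signs run against the group means (ratios 0.968 and 0.971) and turned without surrogate variables (-0.050 and -0.038). The proestrus interval reaches a 1.26-fold level and the diestrus interval 1.16-fold. Proestrus minus diestrus was 0.064 with saline (SE 0.08) and 0.022 with ketamine (SE 0.07), with edgeR adjusted p of 0.987 and 0.998.

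**Figure D2:**
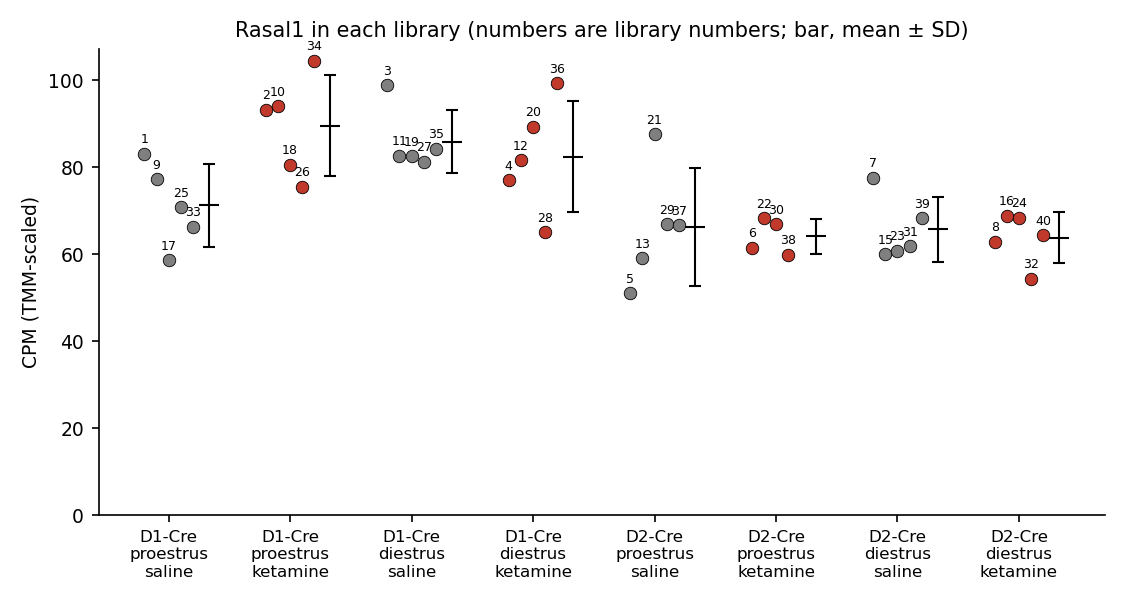
Rasal1 in each of the 39 libraries, as TMM-scaled CPM on the vertical axis, for the same 8 groups. Grey points are saline and red points ketamine libraries, and the bars give mean ± SD. The D2 groups lie close together, with means of 63.8 to 66.3 CPM, and the D1 means run from 71.3 to 89.6 CPM.

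The differences of the ketamine effect that could be tested without proestrus D1 libraries were not called. In diestrus the effect in D2 minus that in D1 was 0.14 for Col11a2 (SE 0.48, interval -0.89 to 1.17) and 0.11 for Rasal1 (SE 0.13, interval -0.17 to 0.38). In D2 the effect in proestrus minus that in diestrus was -0.17 for Col11a2 (SE 0.51, interval -1.27 to 0.94) and 0.006 for Rasal1 (SE 0.15, interval -0.30 to 0.32). In each case edgeR's adjusted p was 1. Over all genes edgeR called 0% in both interactions, where 347 and 248 genes were at an unadjusted p under 0.05 and DESeq2 with 2 surrogate variables called 1 and 0. Whether the proestrus D1 effect differs from the other 3 was not tested, since the genes were chosen on it.

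With ketamine in diestrus the cell types differed at both genes, in opposite directions, and with saline at Rasal1. With ketamine, where 12.8% of 13358 genes were called, Col11a2 was 2.80-fold higher in D2 than in D1 (log2 difference 1.49, SE 0.27, edgeR adjusted p = 0.0159). That call was lost with the log level of the astrocyte markers Gfap and Gja1 as the covariate in place of surrogate variables, an alternative chosen after the data were seen (0.92, edgeR adjusted p = 0.144). All 5 D2 libraries lay above all 5 D1 libraries, and 4.76% of genes had groups that did not overlap. With saline in diestrus, where 4.11% of 13292 genes were called, Col11a2 was not called (log2 difference 0.45, SE 0.15, interval 0.12 to 0.78, edgeR adjusted p = 0.177), and 4 of 5 D2 libraries lay above all D1 libraries. The ratio of the group means there was 2.28, and without surrogate variables the log2 difference was 1.27. Without library 7 it was 0.68 and called (edgeR adjusted p = 0.038), and without library 31 or 39 it was 0.67 and called (edgeR adjusted p = 0.0153 and 0.0187), while without library 23 it was 0.24 and not called (edgeR adjusted p = 0.842). In proestrus, as values only, Col11a2 was 2.41-fold higher in D2 with saline (1.27, SE 0.22) and 1.18-fold higher with ketamine (0.24, SE 0.13), a difference that ran from 0.091 without library 6 to 0.35 without library 30 and was -0.026 with the astrocyte covariate. With saline all 5 D2 libraries of proestrus lay above the D1 libraries (6.44% of genes did not overlap there), and with ketamine 2 of 4 did.

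Rasal1 was lower in D2 than in D1 in diestrus. With saline its level in D2 was 0.685-fold that in D1 (log2 difference -0.55, SE 0.08, edgeR adjusted p = 0.0013), and all 5 D2 libraries lay below all D1 libraries. The closest pair were 3.76 CPM apart, and 6.02% of genes had groups that did not overlap. With ketamine the level was 0.789-fold (log2 difference -0.34, SE 0.07, edgeR adjusted p = 0.00572), and 3 of 5 D2 libraries lay below all D1 libraries. That call was lost without library 20 of the D1 group (-0.30, edgeR adjusted p = 0.125) and with the astrocyte covariate (-0.23, edgeR adjusted p = 0.511). A 2-sided exact permutation test on mean CPM of Rasal1 gave p = 0.00794 with saline, the smallest that 252 arrangements allow, and p = 0.0238 with ketamine (0.0556 and 0.0833 after Benjamini-Hochberg adjustment over 14 such tests). For Col11a2 the same exact permutation test gave p = 0.0238 with saline, where edgeR made no call, and p = 0.00794 with ketamine (0.0833 and 0.0556 after the adjustment). In proestrus, as values only, the log2 difference of Rasal1 was -0.28 with saline (SE 0.09, and -0.10 without surrogate variables) and -0.43 with ketamine (SE 0.08). Leaving out 1 library at a time gave -0.45 to -0.12 with saline and -0.51 to -0.41 with ketamine. All the D2 means of Rasal1 were below all the D1 means.

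**Figure D3:**
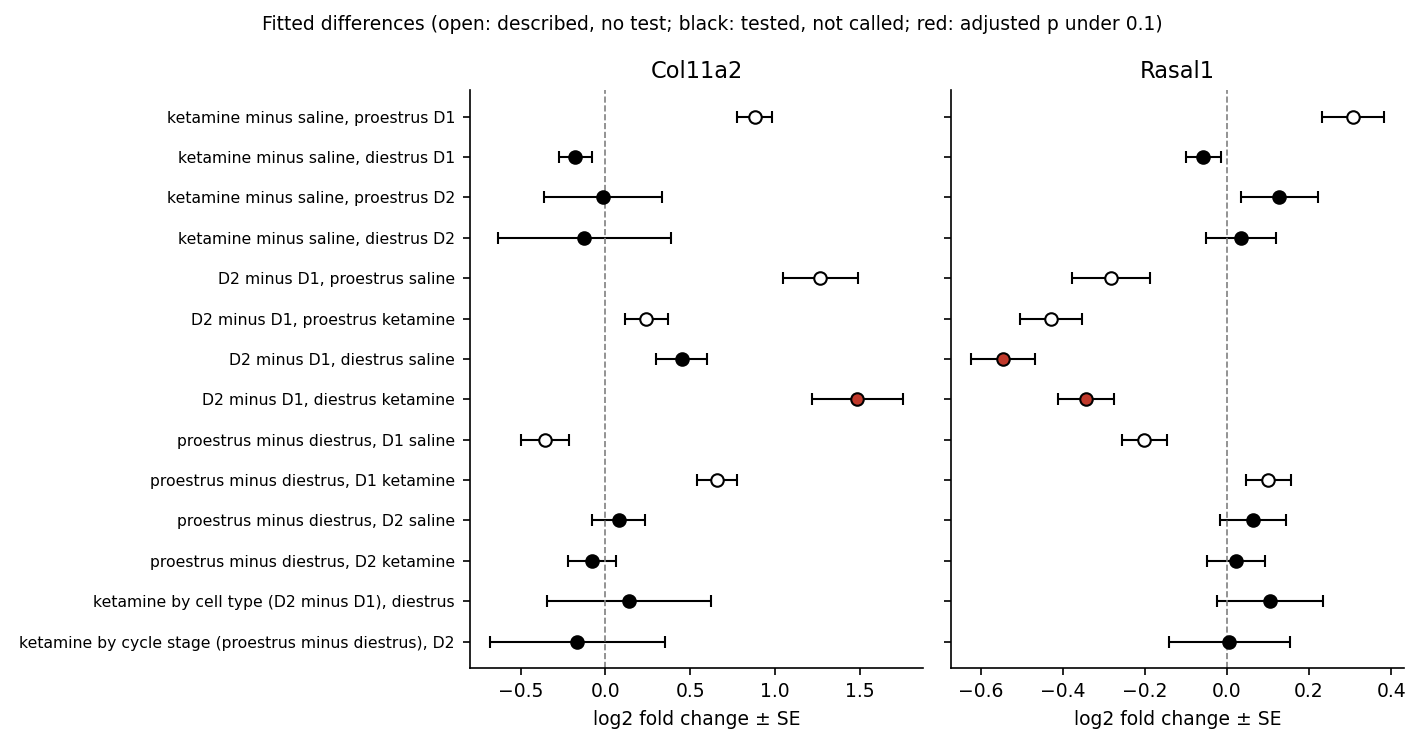
Fitted log2 differences (horizontal axis, ± SE) in the 14 comparisons on the vertical axis, for Col11a2 on the left and Rasal1 on the right. Open points share libraries with the choice of the genes and carry no test, black points were tested and not called, and red points had an edgeR adjusted p under 0.1. The red points are the D2 minus D1 differences in diestrus, for Rasal1 with saline and with ketamine and for Col11a2 with ketamine.

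Ordered by mean, Col11a2 ran from proestrus D1 saline through diestrus D1 ketamine, diestrus D1 saline and proestrus D1 ketamine to proestrus D2 ketamine, proestrus D2 saline, diestrus D2 saline and diestrus D2 ketamine. In 6 of the 7 steps between neighbours the step was smaller than the larger SD of the pair. The exception was the step of 4.97 CPM from diestrus D1 saline to proestrus D1 ketamine. For Rasal1 all 7 steps were smaller than the larger SD, from diestrus D2 ketamine at the bottom to proestrus D1 ketamine at the top.

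The high D2 libraries of Col11a2 were also high in glial markers. Gfap, the filament protein of astrocytes, and Gja1, their gap junction protein, summed to 113 CPM in library 7, 82.5 in library 21, 81.0 in library 32, 69.9 in library 6, 61.9 in library 16 and 58.2 in library 24. The other 13 D2 libraries held at most 52.9 CPM of the pair and at most 25.3 CPM of Col11a2. The 6 libraries with the most Col11a2 among D2 were also the 6 with the most Gfap and Gja1, and the same 6 led the sum of 9 paired markers of astrocytes, oligodendrocytes and their precursors, microglia, vessels and choroid plexus. After subtraction of group means, the log levels of Col11a2 and of Gfap and Gja1 had Pearson's r = 0.911 and Spearman's rho = 0.847 over 19 D2 libraries, and r = 0.839 without libraries 7 and 21. Over 20 D1 libraries r was 0.149. These are descriptions, since all genes of a library share its depth and makeup, and in bulk IP fewer cells of a type and less RNA per cell cannot be told apart.

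In proestrus D1, where Col11a2 was higher with ketamine, the summed level of Gfap and Gja1 was 28.8 to 50.7 CPM with saline (median 41.9) and 39.5 to 45.0 CPM with ketamine (median 42.6). None of the 9 markers was at 0 in any library. The fitted difference of Col11a2 there was 0.83 with the astrocyte covariate. In diestrus with saline the same covariate gave a D2 minus D1 difference of 0.46 for Col11a2 (edgeR adjusted p = 0.344) and of -0.47 for Rasal1, still called (edgeR adjusted p = 0.00873). For Rasal1 and these markers r was 0.481 in D2 and -0.0427 without libraries 7 and 21, and 4 of the 6 D2 libraries with the most Rasal1 were among the 6 with the most Gfap and Gja1.

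**Figure D4:**
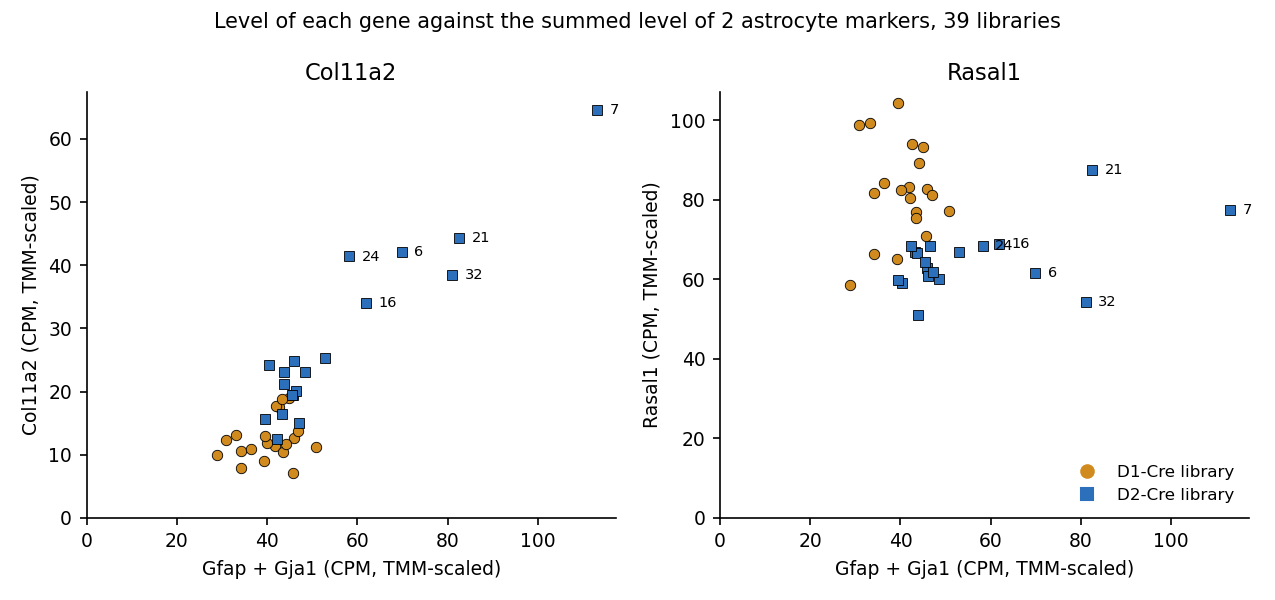
Col11a2 (left) and Rasal1 (right) against the sum of Gfap and Gja1 in the 39 libraries, all as TMM-scaled CPM. Circles are D1-Cre and squares D2-Cre libraries, and library numbers mark sums above 55 CPM. Col11a2 climbs with the marker sum in D2, up to 64.6 CPM at 113 CPM in library 7, while Col11a2 in D1 libraries lies between 7.02 and 19.03 CPM.

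**Figure D5:**
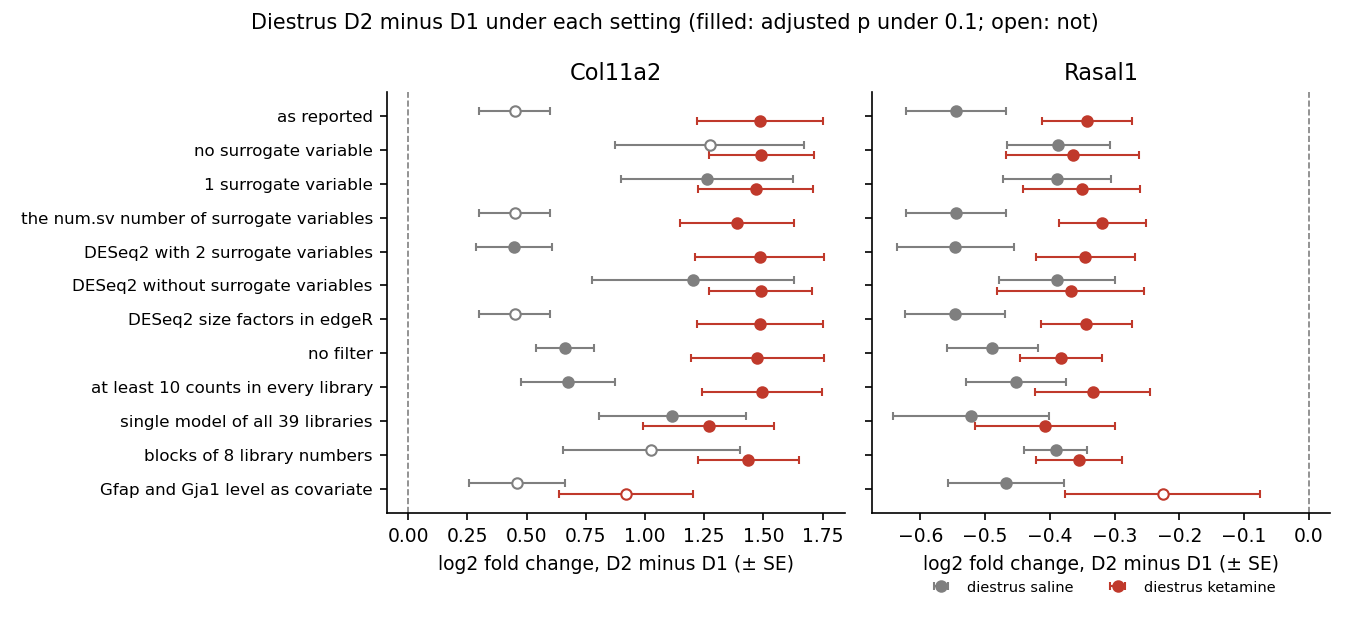
The D2 minus D1 log2 difference in diestrus (horizontal axis, ± SE) under each way of fitting (vertical axis), grey for saline and red for ketamine. Filled points had an adjusted p under 0.1. Col11a2 with saline runs from 0.45 to 1.27 over the settings, and the astrocyte covariate in the lowest line gives open points for both genes with ketamine.

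Other genes of the same families could be read only where a table pairs the identifier with a symbol. Of 11 fibrillar collagens, 4 were paired: Col11a2, Col1a1, Col3a1 and Col5a2. Col1a1 and Col3a1 form the bulk fibrils of connective tissue, and Col5a2 codes for a chain of type V collagen, which joins type XI in mixed fibrils. Beside Col11a2, the other 3 were low, with group means of 0.515 to 1.66 CPM for Col1a1, 1.05 to 5.14 CPM for Col3a1 and 1.80 to 6.21 CPM for Col5a2. In proestrus D1, as values, ketamine minus saline was 0.94 (SE 0.33) for Col1a1, 0.28 (SE 0.29) for Col3a1 and 0.73 (SE 0.18) for Col5a2. The median of the 3 was 0.73, where the median of all genes was 0.0024.

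In the tested comparisons of ketamine with saline none of these 3 collagens was called, with medians of -0.18 in diestrus D1, 0.15 in proestrus D2 and -0.60 in diestrus D2 (all genes, -0.0013, -0.00077 and -0.0021). Between cell types in diestrus, 2 of 3 were called higher in D2 with ketamine (12.8% of all genes called): Col5a2 was higher by 1.76 (SE 0.20, edgeR adjusted p = 4.52e-05) and Col3a1 by 1.79 (SE 0.33, edgeR adjusted p = 0.00407). With saline 0 of 3 were called (median 0.46, 4.11% of all genes called). In the ketamine comparison Gja1 was also called (0.67, edgeR adjusted p = 0.00107), as was Flt1, a receptor of vessel cells (1.03, edgeR adjusted p = 0.00152). The oligodendrocyte gene Mog and the precursor marker Pdgfra were called higher there too, at 0.43 and 0.54 (edgeR adjusted p = 0.0793 and 0.0262). Of the 9 non-neuronal markers, 5 were called with ketamine, where 12.8% of all genes were called, and 0 with saline, where 4.11% were. The interneuron genes Sst and Nos1 were lower in D2 in both, with log2 differences of -1.58 and -2.23 with ketamine and -1.47 and -1.84 with saline (edgeR adjusted p = 0.0211, 0.00047, 0.0131 and 0.00341). The part of these markers in the differences of Col1a1, Col3a1 and Col5a2 was not tested.

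Of 28 genes that process or bind collagen, 3 were paired. Plod3, a lysyl hydroxylase, was at 16.8 to 18.1 CPM in every group, Ddr2, a collagen receptor kinase, at 1.46 to 2.42 CPM, and Adamts14, a procollagen protease, was too low to test. Neither Plod3 nor Ddr2 was called in any of the 9 tested comparisons.

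Among the Ras GTPase-activating proteins, Rasa4, a calcium-responsive relative of Rasal1, had group means of 0.260 to 0.802 CPM and was not called in a comparison that tested it. None of the 8 exchange factors that load Ras with GTP was paired.

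The genes most like Col11a2 over the 39 libraries, after subtraction of group means, were ENSRNOG00000018870 (r = 0.91) and ENSRNOG00000012929 (r = 0.903), out of 12504 genes compared. Among the 1426 of these with a paired symbol, Prodh, a mitochondrial proline dehydrogenase, came first (r = 0.855), then Sat1 (0.826), Prom1 (0.803), Col5a2 (0.776) and Stk38 (0.772). Spearman's rho was lower for each, at 0.725, 0.726, 0.702, 0.602 and 0.621 in that order. For this ranking D1 and D2 libraries were not read apart. Over the 8 group means Col5a2 and Prodh were the closest of the genes with a paired symbol, both at r = 0.987, and ENSRNOG00000058545 (r = 0.993) was the closest of all genes compared. In diestrus Prodh was higher in D2 with ketamine (1.12, SE 0.16, edgeR adjusted p = 0.000362) and was not called with saline (0.51, edgeR adjusted p = 0.202).

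For Rasal1 the closest were ENSRNOG00000019615 (r = 0.825) and ENSRNOG00000020663 (r = 0.815). Among the closest with a paired symbol were Msl3 (r = 0.768), Zmym3 (0.76), Tec (0.718) and Sesn1 (0.71), and over the 8 group means Pabir2 (0.986). No gene was among the 5 closest of both. Within groups, Col11a2 and Rasal1 had r = 0.232 over 20 D1 libraries (0.545 without libraries 25 and 34) and r = 0.395 over 19 D2 libraries (0.333 without libraries 7 and 6).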

How the data were processed

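The data are 39 HA IP libraries of polyribosome-bound mRNA, each from 1 rat; inputs were not analysed here. Per the paper's methods and the submitters' processing notes, the authors cleaned reads with fastp 0.23.4, ran FastQC 0.12.1 and quantified with Salmon 1.10.2 against mRatBN7.2 with bias corrections, and tximport summed them per gene. The deposited values are raw expected counts that the authors gave as whole numbers.

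For each comparison its own groups were fitted over the whole table: edgeR 4.0.16 filterByExpr (minimum count 10), TMM, robust quasi-likelihood test, 2 surrogate variables from svaseq (sva 3.50.0), Benjamini-Hochberg adjustment, and a call at an adjusted p under 0.1. The code was tested on simulated data. Levels are CPM scaled by TMM over 39 libraries, with SD between libraries. Exact permutation tests were 2-sided. R was 4.3.3, DESeq2 1.42.0 (alternative) and limma 3.58.1. Symbols came from the identity columns of the study's supplementary tables for 1966 of 23978 identifiers.

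The members and lists were chosen with earlier results of these data known. Genes were named by rule: the members, the 5 most like each, called list members, neighbours and Adora2a. Results of a few genes that the rule or lists include are not reported here. The remaining genes named are list members given with their values, chosen after these were seen. Alternatives were other numbers of surrogate variables, DESeq2, other scaling, filters and threshold, a single model, blocks of 8 library numbers, an astrocyte covariate and leaving out each library.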

Additional observations from a re-analysis of the deposited data

Results flagged for a closer look

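In 5 of the 16 groups of 4 or 5 libraries looked at (8 per gene), 1 library lay far from the others by Dixon's ratio of gap to range. The outlying D2 values were known when the genes were chosen, so nothing is read from this number. For Col11a2 these were library 34 of proestrus D1 ketamine, low at 12.99 CPM where the next was 17.55, and 3 high D2 libraries. Library 21 of proestrus D2 saline was at 44.37 CPM (next 25.3), library 6 of proestrus D2 ketamine at 42.11 CPM (next 20.03), and library 7 of diestrus D2 saline at 64.56 CPM (next 24.79). Libraries 7, 21 and 6 ranked 1, 2 and 4 of the D2 libraries for the sum of Gfap and Gja1. For Rasal1 the library was number 3 of diestrus D1 saline, at 98.84 CPM (next 84.27).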

How the results depend on the processing

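No paired analysis was possible because no library number is shared between groups and the labels name no pairs; blocks of 8 consecutive library numbers, at most 1 library per group in each, were fitted in place of surrogate variables. Of 216 values of tested comparisons under other settings, 181 kept direction and side of the threshold, and the causes of the others were not tested. Col11a2 in D2 minus D1 with saline in diestrus (0.45, not called) became called with 1 surrogate variable (1.26), DESeq2 with 2 (0.45) or no surrogate variables (1.20), no filter (0.66), at least 10 counts in every library (0.68) and the single model (1.11), with adjusted p of 0.00598 to 0.344 over all settings. With the astrocyte covariate, D2 minus D1 with ketamine in diestrus was no longer called for Col11a2 (0.92) and Rasal1 (-0.23), and the described D2 minus D1 difference of Col11a2 in proestrus ketamine turned to -0.026. Rasal1 with saline was called in 12 of 12 settings.

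All other turns of direction were of values that no setting called. Col11a2 turned for ketamine in proestrus D2 with no filter (0.009). It turned for ketamine in diestrus D2 with no surrogate variable (0.060), DESeq2 without them (0.12), at least 10 counts (0.11), blocks of 8 library numbers (0.31) and the covariate (0.19). It turned for proestrus minus diestrus in D2 saline with 0 (-0.10) and 1 (-0.20) surrogate variables, DESeq2 without them (-0.024) and the single model (-0.16). Rasal1 turned for ketamine in proestrus D2 with 0 (-0.050) and 1 (-0.003) surrogate variables, DESeq2 without them (-0.047), blocks (-0.071) and the covariate (-0.004), and in diestrus D2 with the same settings (-0.038, -0.030, -0.036, -0.039 and -0.035). It turned for proestrus minus diestrus in D2 saline with blocks (-0.001) and in D2 ketamine with the covariate (-0.013). Its ketamine by stage interaction in D2 turned with 0 (-0.008) and 1 (-0.006) surrogate variables, DESeq2 without them (-0.009), the single model (0) and blocks (-0.011).

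Leaving out each library gave, for Col11a2, 0.24 to 0.68 in D2 minus D1 with saline in diestrus, called without library 7, 31 or 39. The ranges were -0.46 to 0.20 and -0.38 to 0.52 for ketamine in proestrus and diestrus D2, -0.071 to 0.26 and -0.38 to 0.014 for proestrus minus diestrus in D2 saline and ketamine, and -0.086 to 0.64 and -0.66 to 0.045 for the interactions by cell type and by stage. For Rasal1 they were -0.42 to -0.29 in D2 minus D1 with ketamine in diestrus, not called without library 20 (edgeR adjusted p = 0.125), -0.003 to 0.15 for ketamine in diestrus D2, -0.009 to 0.13 and -0.031 to 0.052 for proestrus minus diestrus in D2 saline and ketamine, and -0.099 to 0.097 for the interaction by stage. In proestrus D1 ketamine minus saline stayed at 0.80 to 0.99 for Col11a2 and 0.23 to 0.34 for Rasal1. Group means under total counts or DESeq2 size factors all lay within 1 SD. Over all genes, D2 minus D1 in diestrus called 369 to 1348 with saline (273, 308 and 926 without library 23, 31 and 39) and 420 to 2204 with ketamine. Library 39 limits precision, with 30 counts of Col11a2. The intervals give the uncertainty of the fitted differences between groups of rats, and they do not cover the identity of the tagged cells.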
